A study of Mus musculus with 5 samples.

Results

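The sodium-potassium pump subunit genes described here are the beta subunit genes Atp1b1, Atp1b2 and Atp1b3 and the FXYD genes Fxyd1, Fxyd6 and Fxyd7, which are 6 of the 55471 genes in the count table. They were taken by name, as the rows whose Ensembl identifier carries these symbols in the GRCm38 annotation, and all 6 had enough counts to be tested. The catalytic alpha subunit genes are not analysed here. All mice were resting males of the C57BL/6J strain, 3 months old, and the tissue was the spinal cord. The 2 KO libraries came from Lhx1os -/- mice, and the 3 WT libraries from mice with both copies of this long non-coding RNA gene intact. The KO allele was made in fertilized eggs with Cas9 and a single guide to exon 2 of Lhx1os, where a synthetic poly(A) signal followed by MAZ elements was inserted. How many founder lines were used, and whether animals shared a litter, is not given in the sources used here, and p-values measure the spread between these libraries. The libraries held between 15973063 and 19437533 counts. Lhx1os itself, the check of the labels, had 13 and 11 counts in KO libraries against 56, 66 and 51 in WT libraries. WT replicate 2 stood apart from the other 4 libraries by RNA of sensory ganglia, which lie outside the cord, so counts and fold changes of the 6 genes are also given without it; its part in the results was not otherwise tested.

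The pump moves sodium out of a cell and potassium in at the cost of ATP, and in nervous tissue it restores the ion gradients that action potentials and sodium-driven transporters run down. A catalytic alpha subunit pairs with a glycosylated beta subunit, which carries it through the endoplasmic reticulum to the membrane, and a small FXYD protein can join the pair and adjust its affinity for ions. Beta and FXYD genes are used unevenly between cell types. In the central nervous system Atp1b1, Fxyd6 and Fxyd7 are known mainly from neurons, whereas Atp1b2, also called adhesion molecule on glia, is known from astrocytes and Fxyd1, also called phospholemman, from glia and the choroid plexus. Atp1b3 is used broadly. The names neuronal, glial and broad below stand for this textbook assignment, which was not measured in these whole-tissue libraries.

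In GRCm38, Atp1b1 (ENSMUSG00000026576) lies on the minus strand of chromosome 1 from 164437109 to 164458355, Atp1b2 (ENSMUSG00000041329) on the minus strand of chromosome 11 from 69599736 to 69605942 and Atp1b3 (ENSMUSG00000032412) on the minus strand of chromosome 9 from 96332655 to 96364442. Fxyd6 (ENSMUSG00000066705) is also on chromosome 9, on the plus strand between 45370185 and 45396159, and 3509 bases separate it from Fxyd2. Fxyd7 (ENSMUSG00000036578; 31042513 to 31051467) and Fxyd1 (ENSMUSG00000036570; 31051678 to 31057199) follow each other on the minus strand of chromosome 7. The gap between them is 210 bases, and the gap between Fxyd7 and Fxyd5 on its other side is 31 bases. A neuronal and a glial FXYD gene are thus direct neighbours on the same strand, and gene counts do not show transcripts that run from one into the next. Atp1b1 shares 575 of its 3081 exon bases with Nme7 on the opposite strand. Nme7 stood at 7.40 ± 0.581 CPM in KO (SD, n = 2) and 7.63 ± 0.850 CPM in WT (SD, n = 3), far below Atp1b1. CPM is the gene's count scaled to a common library size, with TMM factors. The other 5 genes share no exon base with another gene.

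Promoter windows from RefSeq (GRCm38.p6; 250 bases before to 50 after the start) were found for 4 of the 6 genes. Those of Atp1b1, Atp1b3 and Fxyd1 are printed 5′ to 3′ on the strand of the gene because these windows differ in base composition. They cover chr1:164458306-164458605, chr9:96364382-96364681 (the upstream of 2 starts of Atp1b3) and chr7:31054804-31055103. The Fxyd1 window lies wholly inside the annotated gene, whose 5′ end is at 31057199. It thus shows a start within a gene of 17 annotated transcripts, and not the outermost start. Capitals mark, on either strand, the GC box, which was searched as GGGCGG. They also mark the box named for its letters CCAAT. In the Fxyd1 window the capitals mark the letters TATAAA, found on the opposite strand. They lie within the last 50 bases of the window, after the start, so they are given as letters and not as a TATA box.
Atp1b1: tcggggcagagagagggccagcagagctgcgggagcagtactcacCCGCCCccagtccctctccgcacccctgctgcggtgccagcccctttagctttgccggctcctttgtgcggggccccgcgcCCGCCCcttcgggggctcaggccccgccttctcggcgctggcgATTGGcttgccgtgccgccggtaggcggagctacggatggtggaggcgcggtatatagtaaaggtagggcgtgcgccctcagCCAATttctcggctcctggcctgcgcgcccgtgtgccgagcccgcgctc
Atp1b3: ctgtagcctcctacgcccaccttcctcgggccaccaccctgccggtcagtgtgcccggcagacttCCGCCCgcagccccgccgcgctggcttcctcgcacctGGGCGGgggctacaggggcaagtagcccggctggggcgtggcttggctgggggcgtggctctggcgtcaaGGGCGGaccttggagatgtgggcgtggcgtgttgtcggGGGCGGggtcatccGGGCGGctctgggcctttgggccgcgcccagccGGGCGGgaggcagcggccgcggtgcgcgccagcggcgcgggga
Fxyd1: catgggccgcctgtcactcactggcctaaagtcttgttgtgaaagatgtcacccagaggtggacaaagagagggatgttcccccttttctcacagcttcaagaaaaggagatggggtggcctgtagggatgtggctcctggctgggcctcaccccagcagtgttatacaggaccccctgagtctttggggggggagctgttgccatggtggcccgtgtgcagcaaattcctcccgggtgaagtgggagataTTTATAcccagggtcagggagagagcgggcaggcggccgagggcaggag

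The Atp1b1 window had a GC content of 71.0% with 31 CpG dinucleotides, and the Atp1b3 window 76.0% with 34. The Fxyd1 window had 58.7% and 6 CpG, and that of Fxyd6 54.3% and 12. Over all 32851 windows the medians were 52.7% and 7 CpG. GGGCGG occurred 2 times in the Atp1b1 window and 6 times in this Atp1b3 window, but 0 times in the window of the downstream start of Atp1b3 (chr9:96363666-96363965), which had a GC content of 74.7% and 39 CpG. Of all windows, 35.7% hold this box. CCAAT occurred 2 times in the Atp1b1 window and 1 time in that of Fxyd6, and 37.4% of all windows hold it. TATAAA was found in Fxyd1 alone of the 5 windows of these genes, on its opposite strand, and 13.6% of all windows hold it. No marked motifs overlap each other in these windows.

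Messages of the beta subunits Atp1b1 and Atp1b2 were far more abundant than those of the other 4 genes in every KO and WT library. Levels of different genes were compared as CPM per kilobase of exon. Atp1b1 was the highest, at 537 and 534 CPM per kilobase in the KO libraries and 562, 527 and 498 in the WT libraries. Atp1b2 followed at 373 and 346 in KO and 374, 316 and 326 in WT, so the lowest library for Atp1b1 stood above the highest for Atp1b2. Atp1b3 was next, with a mean over the 5 libraries of 78.3 ± 5.62 CPM per kilobase (SD, n = 5), close to Fxyd7 at 64.7 ± 7.69. The ranges of Atp1b3 (73.4 to 86.6) and Fxyd7 (57.0 to 76.1) overlapped, so their order is within the spread. Fxyd1 had 19.5 ± 1.67 and Fxyd6 10.6 ± 1.71 CPM per kilobase (SD, n = 5), with ranges that did not overlap.

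The place of Fxyd1 in this order depends on the length used. Its annotation holds 17 transcripts that together cover 2186 bases, while its principal transcript has 620. Divided by principal transcript lengths, Fxyd1 had 68.9 ± 5.88 CPM per kilobase, above Fxyd7 at 64.7 ± 7.69 (SD, n = 5), and the ranges of these neighbours overlapped. Fxyd6 then had 24.4 ± 3.93 and the beta genes kept their order, at 635 ± 27.4 for Atp1b1, 499 ± 38.5 for Atp1b2 and 93.8 ± 6.73 for Atp1b3.

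**Figure D1:**
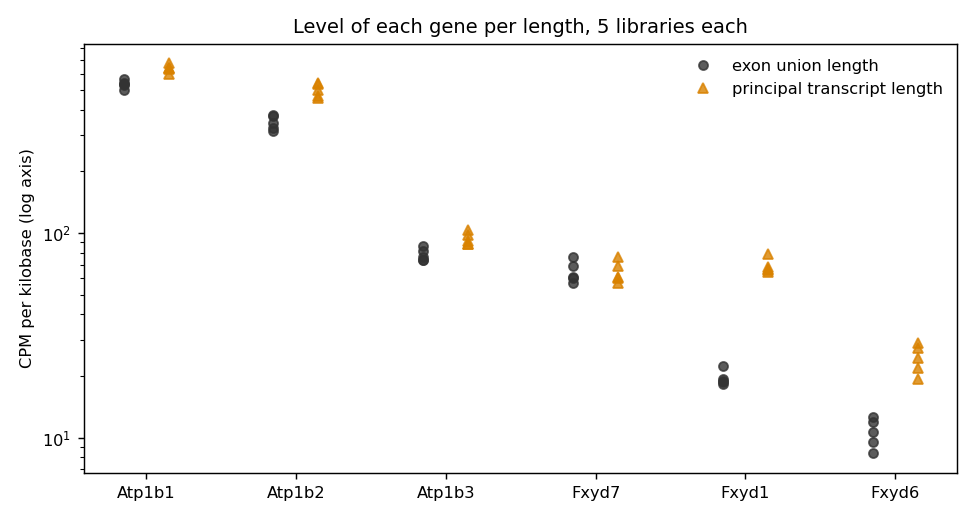
Level of each gene in CPM per kilobase on a log axis, 1 point per library (5 per gene), divided by the exon union length (circles) or the principal transcript length (triangles). The beta genes Atp1b1 and Atp1b2 lie above all others with either length, while Fxyd1 moves from about 19.5 to 68.9 CPM per kilobase, where its range overlaps that of Fxyd7.

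Among the 3 beta messages per exon length, Atp1b1 made up 55.3% ± 1.03 in KO (SD, n = 2) and 55.8% ± 1.16 in WT (SD, n = 3). Atp1b2 made up 37.1% ± 1.17 in KO and 35.6% ± 1.40 in WT. Atp1b3 made up 7.51% and 7.70% in the KO libraries, against 7.52%, 8.82% and 9.51% in the WT libraries. The groups overlapped for each of the 3 shares, and for Atp1b3 the second KO library lay above the lowest WT library.

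None of the 6 genes passed the test between KO and WT. The test was edgeR's quasi-likelihood test over 16052 genes with Benjamini-Hochberg adjustment and a threshold of 0.05, and the adjusted p-values of the 6 genes ran from 0.450 to 0.967. Of all genes tested, 0.0187% passed, all of them lower in KO. DESeq2 and limma-voom also called 0 of the 6, against 0.265% of all genes for DESeq2. At an unadjusted p under 0.05 there was 1 of the 6, Fxyd7, which was higher in KO, where 7.57% of all genes reached that level (3.49% higher and 4.07% lower in KO). The groups did not overlap for 2 of the 6, Fxyd7 and Atp1b3, where 24.9% of all genes did not overlap. Log2 fold changes were positive for 4 and negative for 2. The median was 0.052 over the 6 and 0.0044 over all genes. Without WT replicate 2 the counts were again 0 passing and 1 at an unadjusted p under 0.05 (10.2% of all genes then). The count at an unadjusted p under 0.05 depended on WT replicate 1, since without it there were 4 of the 6, Atp1b2, Atp1b3, Fxyd6 and Fxyd7, where 9.28% of all genes reached that level. Without KO replicate 1 the 1 gene was Fxyd1 in place of Fxyd7, whose unadjusted p in edgeR was then 0.068, and 4.82% of all genes reached that level. With 1 KO library left, that library is assumed to vary like the WT libraries. Under each of these fits 0 of the 6 passed the adjusted test.

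**Figure D2:**
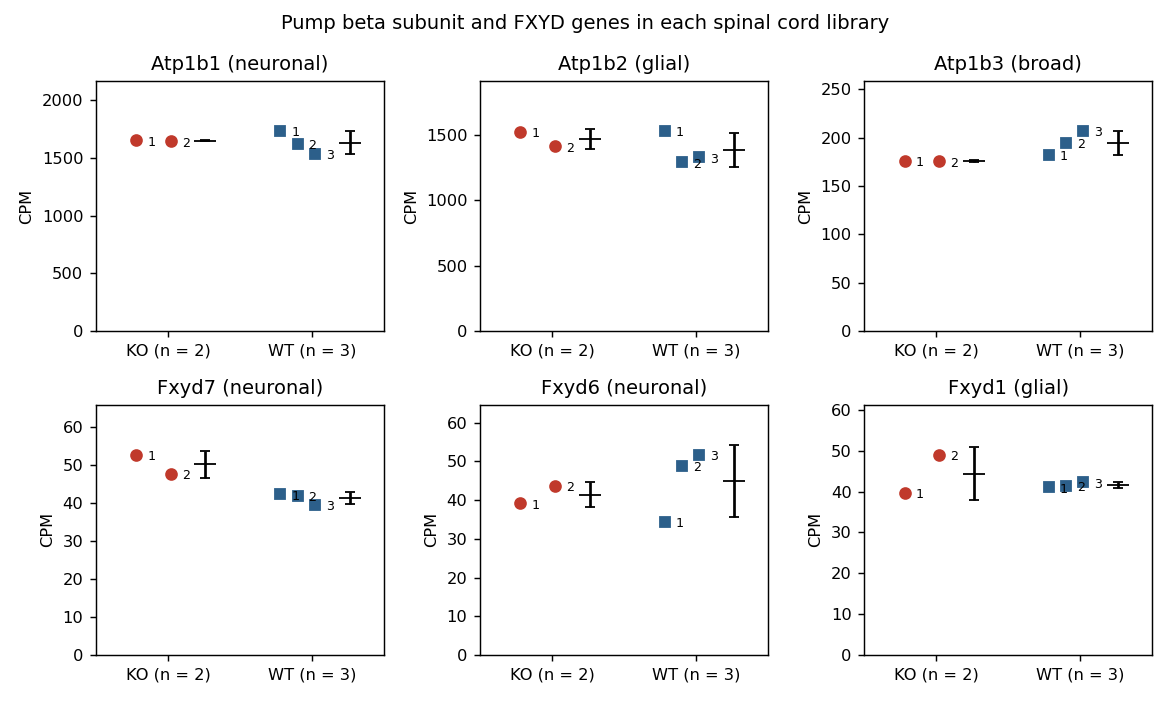
CPM of the 6 genes in each library, with KO libraries (circles, n = 2) left of WT libraries (squares, n = 3), replicate numbers beside the points and the mean with SD as a black bar. Fxyd7 lies higher in both KO libraries (52.7 and 47.7 CPM) than in every WT library and Atp1b3 lower, while the groups overlap for the other 4 genes.

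Of the beta subunit genes, Atp1b1, the main neuronal beta subunit, had 1653 and 1646 CPM in the KO libraries against 1733, 1623 and 1536 CPM in the WT libraries. Both KO libraries lay inside the WT range. The log2 fold change of 0.02 (SE 0.07) did not pass (edgeR adjusted p = 0.967). The unadjusted 95% interval ran from −0.13 to 0.16, or from 0.915 to 1.12 as a fold, so larger changes in either direction lie outside it.

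Atp1b2, the glial beta subunit, had 1524 and 1413 CPM in KO against 1529, 1289 and 1330 CPM in WT. The highest value belonged to WT replicate 1, with KO replicate 1 next to it, and the groups overlapped. KO exceeded WT by 0.09 on the log2 scale (SE 0.08; edgeR adjusted p = 0.819), with an unadjusted 95% interval of −0.09 to 0.26. Leaving out WT replicate 1 gave 0.16 and leaving out KO replicate 1 gave 0.03. The astrocyte markers set beside it did not go the same way as a list, with 4 of 10 higher and 6 lower in KO. Their median log2 fold change was −0.09, with 0 passing over all genes. At an unadjusted p under 0.05 in edgeR there were 4 of the 10, where 7.57% of all genes reached that level. Of these 4, 2 were higher and 2 lower in KO. Their summed level was 5137 and 4963 CPM in KO and 5319, 4881 and 5396 CPM in WT.

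Atp1b3, the broadly used beta subunit, had 176 and 175 CPM in the KO libraries, lower than each of the WT libraries at 182, 195 and 207 CPM. The KO libraries lay close together and WT replicate 1 was the nearest WT library to them. The log2 fold change was −0.14 (SE 0.07; unadjusted p = 0.0529, edgeR adjusted p = 0.663), a fold of 0.905. The unadjusted 95% interval on the log2 scale ran from −0.29 to 0.0022, and 1278 genes had a smaller p. The oligodendrocyte precursor markers, which belong to another cell type of the cord, were lower in KO in 4 of 5. Other lists went the same way, with microglia markers lower in 6 of 7 and meningeal fibroblast markers in 8 of 8. Neuron markers went the other way, with 11 of 12 higher. The median of the 5 precursor markers was −0.22 on the log2 scale, with 0 passing over all genes. At an unadjusted p under 0.05 in edgeR there were 4 of these 5, where 7.57% of all genes reached that level. Their summed level was 338 and 324 CPM in KO and 391.9, 394 and 402 CPM in WT; whether this bears on Atp1b3 was not tested.

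Fxyd7, the neuronal FXYD gene whose protein alters the pump's affinity for potassium, had 52.7 and 47.7 CPM in the KO libraries, higher than each of the WT libraries at 42.4, 41.9 and 39.5 CPM. Both KO libraries stood above the whole WT range, whose values lay within 3 CPM of each other. It averaged 50.2 ± 3.57 CPM in KO (SD, n = 2) and 41.3 ± 1.53 CPM in WT (SD, n = 3). KO exceeded WT by 0.28 on the log2 scale (SE 0.08), a fold of 1.22 with an unadjusted 95% interval of 1.08 to 1.37. The unadjusted p was 0.0038, 134 genes had a smaller one, and the adjusted p of 0.450 in edgeR did not pass. Leaving out 1 library at a time moved the log2 fold change between 0.21, without KO replicate 1, and 0.35, without KO replicate 2.

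Neuron markers were given beside Fxyd7 because whole tissue cannot tell more cells of a type from more RNA per cell. Of the 12 neuron markers 11 were higher and 1 was lower in KO. The median of the 12 was 0.11 on the log2 scale, and 0 passed over all genes (1 at an unadjusted p under 0.05, Tubb3, a tubulin of neurons, at 0.22 (SE 0.07)). Their summed level was 12110 and 11363 CPM in KO and 11919, 10464 and 10319 CPM in WT, where WT replicate 1 stood above KO replicate 2. Fxyd7 was lower in WT replicate 1, at 42.4 CPM, than in KO replicate 2, at 47.7 CPM, unlike the summed level. By their mean on the log2 scale, relative to the WT mean, the neuron markers had the same order over all libraries as Fxyd7. The markers averaged 0.124 and 0.075 in KO and 0.066, 0.0016 and −0.067 in WT. Fxyd7 stood at 0.354 and 0.209 in KO and 0.038, 0.024 and −0.062 in WT. Of the 6 motor neuron markers 5 were higher and 1 was lower in KO. Their median was 0.23 on the log2 scale, and 0 passed over all genes (1 at an unadjusted p under 0.05). They summed to 330 and 230 CPM in KO and 304, 191 and 209 CPM in WT, and the groups overlapped. The part of these lists in the Fxyd7 difference was not tested.

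Fxyd1, the glial FXYD gene and the neighbour of Fxyd7, had 39.7 and 49.0 CPM in KO against 41.1, 41.4 and 42.3 CPM in WT. The 2 KO libraries lay on either side of a narrow WT range. The log2 fold change was 0.09 (SE 0.09; edgeR adjusted p = 0.824). Its direction rested on KO replicate 2, since it was −0.07 without that library and 0.23 without KO replicate 1. The ependymal markers summed to 46.2 and 46.4 CPM in KO and 38.0, 40.7 and 44.4 CPM in WT. Most of this sum was Foxj1, at 32.6 CPM in both KO libraries and 28.6, 28.9 and 25.6 CPM in WT. By their mean on the log2 scale, relative to the WT mean, the groups overlapped. The 4 markers then averaged 0.087 and 0.154 in KO and −0.272, −0.145 and 0.417 in WT. Skeletal muscle, another known source of Fxyd1, gave markers summing to 16.7 and 6.00 CPM in KO and 6.49, 6.03 and 3.32 CPM in WT, and KO replicate 1, which was high for these markers, was the KO library with less Fxyd1. The part of muscle and ependymal RNA in the Fxyd1 values was not tested. All 6 tested muscle markers were higher in KO, with 0 passing over all genes (1 at an unadjusted p under 0.05).

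Fxyd6, known as phosphohippolin and found in neurons, had 39.2 and 43.7 CPM in KO against 34.4, 48.9 and 51.7 CPM in WT. The KO libraries lay inside a wide WT range, whose SD was 20.7% of the mean, against 1.55% for Fxyd1 and 3.71% for Fxyd7 in the same libraries. The log2 fold change was −0.12 (SE 0.15; edgeR adjusted p = 0.865). Without WT replicate 1 it was −0.28 and without WT replicate 3 it was −0.01.

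**Figure D3:**
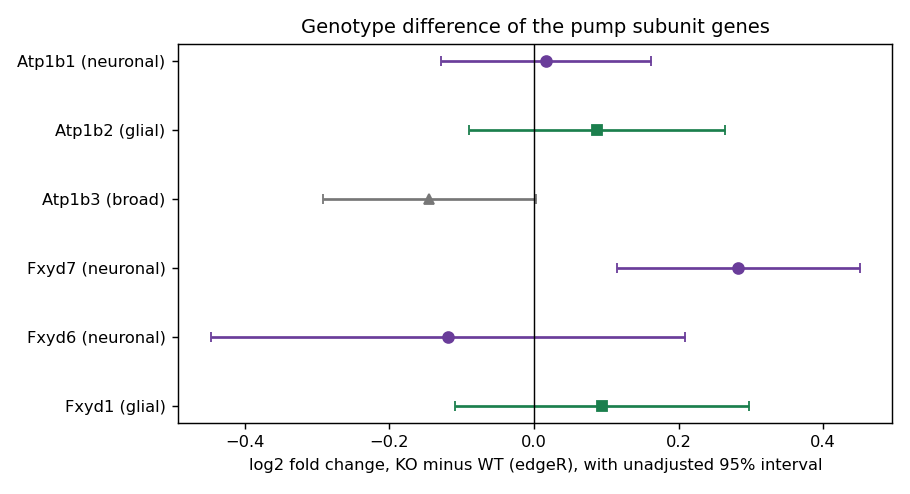
Log2 fold change of each gene, KO minus WT, from the edgeR fit, with the unadjusted 95% interval as a bar and 0 as a vertical line. The interval of Fxyd7 lies to the right of 0 at 0.11 to 0.45, those of the other 5 genes include 0, and the widest belongs to Fxyd6.

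Fxyd6 had the same order over the 5 libraries as the mean of the meningeal fibroblast markers and that of the Schwann cell markers, which stand for the coverings and nerve roots that adhere to a dissected cord. Relative to the WT mean on the log2 scale, Fxyd6 stood at −0.18 and −0.02 in the KO libraries and −0.36, 0.14 and 0.22 in the WT libraries. The 8 meningeal markers averaged −0.42 and −0.33 in KO and −0.68, 0.19 and 0.49 in WT. The 5 Schwann cell markers averaged −0.37 and 0.09 in KO and −0.52, 0.19 and 0.34 in WT. Other marker lists had other orders. The 12 neuron markers averaged 0.124 and 0.075 in KO and 0.066, 0.0016 and −0.067 in WT, although Fxyd6 is named neuronal here. The summed level of the meningeal markers was 273 and 303 CPM in KO and 225, 439 and 529 CPM in WT. That of the Schwann cell markers was 357 and 501 CPM in KO and 307, 467 and 584 CPM in WT. By this sum the Schwann cell markers were higher in KO replicate 2 than in WT replicate 2, whereas Fxyd6 was lower. None of the meningeal or Schwann cell markers was at 0. All 8 meningeal markers and all 5 Schwann cell markers had negative log2 fold changes. The medians were −0.44 and −0.07, and 0 passed over all genes (1 of each list at an unadjusted p under 0.05). The part of these tissues in the Fxyd6 values was not tested.

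Set within a library, neuronal genes exceeded glial ones for the beta subunits. Per exon length, Atp1b1 over Atp1b2 was 1.44 and 1.54 in the KO libraries and 1.503, 1.67 and 1.53 in the WT libraries. The groups overlapped, and the log2 ratio averaged 0.58 ± 0.07 in KO (SD, n = 2) and 0.65 ± 0.08 in WT (SD, n = 3), a difference of −0.07 that is within the spread. Fxyd7 over Fxyd1 was 4.19 and 3.07 in KO and 3.25, 3.20 and 2.95 in WT. KO replicate 1 stood above every WT library and KO replicate 2 among them. The difference of the mean log2 ratio was 0.20, with 0.42 when KO replicate 2 was left out and −0.03 when KO replicate 1 was left out. With principal transcript lengths the same ratio was 1.19 and 0.871 in KO and 0.923, 0.907 and 0.836 in WT. Which of these FXYD genes is higher thus depends on the length used. For a ratio of 1 gene to another, the difference between genotypes cannot depend on it, since a gene's length is the same in every library and cancels. Fxyd6 over Fxyd1 was 0.525 and 0.475 in KO and 0.446, 0.629 and 0.651 in WT, which overlapped.

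Summed over each class, neuronal over glial was 1.59 and 1.67 in KO and 1.61, 1.79 and 1.65 in WT, with Atp1b1 and Atp1b2 giving most of each sum. The difference of the mean log2 ratio was −0.05, against a pooled SD of 0.07 between libraries, and without WT replicate 2 it was 0.0008. Length does not cancel from a sum of genes, and with CPM in place of counts per length the difference was −0.068. No p was computed for these ratios, since their members were chosen with earlier results known.

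**Figure D4:**
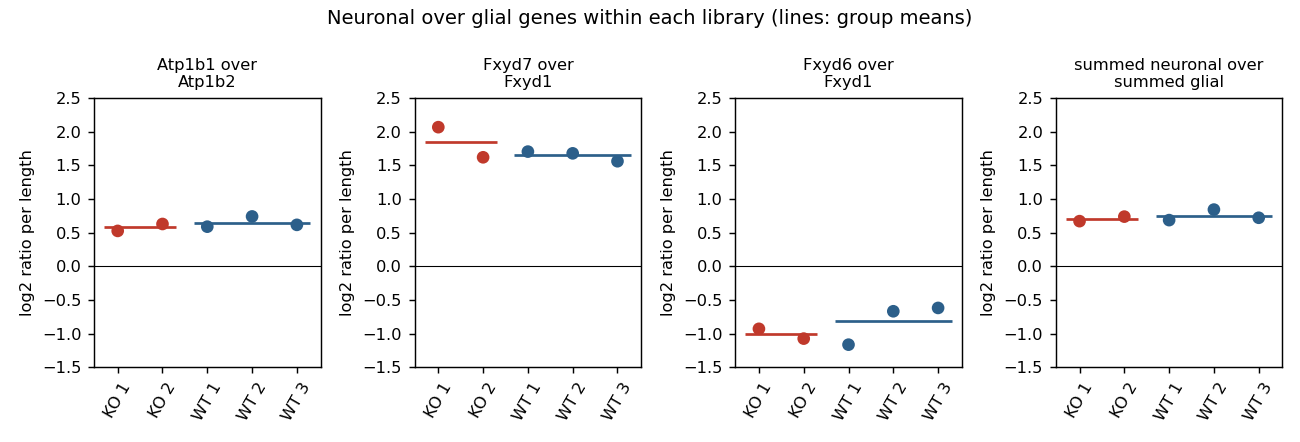
Log2 ratio of neuronal to glial genes per exon length within each library, with KO libraries left of WT libraries and horizontal lines at the group means. Atp1b1 over Atp1b2 and the summed classes differ little between genotypes, and KO replicate 1 stands apart for Fxyd7 over Fxyd1 at 2.07.

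Of the remaining beta and FXYD genes, Fxyd4 had 0 counts in every library, which allows up to 3 counts in each, and Atp1b4 had 1 count in WT replicate 2 and 0 elsewhere. Fxyd5, also called dysadherin, had 14.4 and 11.0 CPM in KO and 9.82, 12.7 and 14.5 CPM in WT, with overlapping groups. Fxyd3 had 14 and 17 counts in KO and 11, 11 and 8 in WT, with a log2 fold change of 0.74 (SE 0.38; edgeR adjusted p = 0.707). None of the 3 that were tested passed (0 at an unadjusted p under 0.05).

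Fxyd2, the gamma subunit of the kidney pump, which is also found in sensory neurons, set WT replicate 2 apart. It had 16 and 18 counts in the KO libraries and 11, 135 and 10 in the WT libraries. The markers of sensory ganglia were high in the same library. Scn10a, a sodium channel gene of nociceptors, had 2 and 1 counts in KO and 2, 306 and 2 in WT. Avil, which encodes advillin, had 1 and 7 counts in KO and 5, 196 and 7 in WT, and Mrgprd and Prdm12 had 41 and 45 counts in WT replicate 2 and at most 5 in any other library. The 4 markers summed to 0.491 and 0.500 CPM in KO and 0.476, 30.0 and 0.616 CPM in WT. The log2 fold change of Fxyd2 was −1.41 (SE 0.94; edgeR adjusted p = 0.755) and turned to 0.72 (SE 0.41; adjusted p = 0.593) without WT replicate 2. Among the 6 subunit genes the log2 fold change without that library was 0.01 for Atp1b1, 0.04 for Atp1b2, −0.14 for Atp1b3, 0.09 for Fxyd1, −0.05 for Fxyd6 and 0.29 for Fxyd7, so none changed direction.

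**Figure D5:**
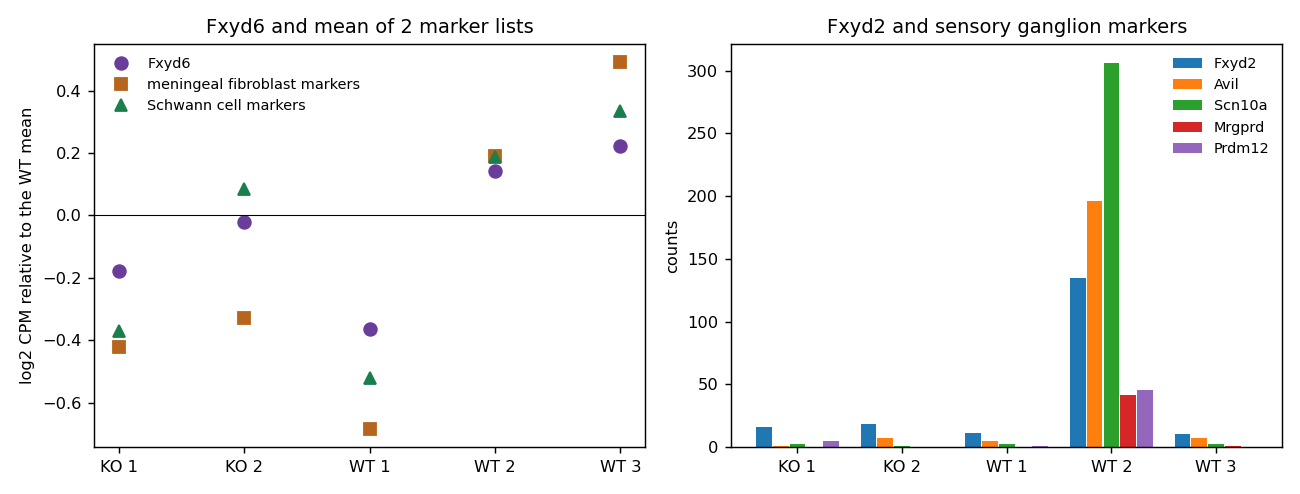
Left, log2 CPM relative to the WT mean of Fxyd6 (circles) and the mean of the meningeal fibroblast (squares) and Schwann cell (triangles) markers in each library. Right, counts of Fxyd2 and of 4 sensory ganglion markers in each library. KO libraries are left of WT libraries; Fxyd6 and both lists share the same order, and the right panel shows WT replicate 2 far above the other 4 libraries.

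Genes that work with the pump were taken from 5 lists of 41 genes in all, of which 39 were tested and 0 passed over all genes in edgeR. At an unadjusted p under 0.05 there were 3, which is 7.69% of those tested and so near the share of all genes, 7.57%. That count moved with the libraries in the fit. Without WT replicate 2 there were 10, or 25.6% of those tested against 10.2% of all genes, and without WT replicate 1 there were 5, or 12.8% against 9.28%. Without KO replicate 1 there were 0 against 4.82% of all genes, without KO replicate 2 there was 1 (2.56% against 5.75%), and without WT replicate 3 there were 2 (5.13% against 4.90%). Under each of these fits 0 passed. Of the 11 pump partners and regulators 5 were higher and 6 lower in KO (median log2 fold change −0.01). Their most abundant members were the ankyrin genes Ank2, at 955 ± 27.5 CPM in KO (SD, n = 2) and 945 ± 38.8 CPM in WT (SD, n = 3), and Ank3, at 673 ± 25.2 CPM in KO and 664 ± 60.6 CPM in WT. Ankyrins tether the pump to the membrane skeleton. Src, a kinase described as a signalling partner of the pump, stood at 0.20 (SE 0.08; edgeR adjusted p = 0.641).

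Of the 8 genes of glial potassium uptake and sodium-coupled transport 3 were higher and 5 lower (median −0.06). Slc12a2, the cotransporter NKCC1 that brings in sodium, potassium and chloride, was the member of smallest p, at −0.18 (SE 0.07; edgeR adjusted p = 0.651). The most abundant were the glutamate transporter gene Slc1a2, at 2146 ± 55.1 CPM in KO and 2067 ± 130 CPM in WT, and the potassium channel gene Kcnj10, at 1088 ± 47.8 CPM in KO and 1091 ± 100.2 CPM in WT (SD, n = 2 and 3). Of the 10 genes of neuronal sodium-coupled transport 9 were higher and 1 lower (median 0.06), beside neuron markers of which 11 of 12 were higher. The most abundant were the sodium-calcium-potassium exchanger gene Slc24a2, at 699 ± 30.4 CPM in KO and 666 ± 40.4 CPM in WT, and the potassium-chloride cotransporter gene Slc12a5, at 640.0 ± 13.3 CPM in KO and 588 ± 63.0 CPM in WT. Of the 7 calcium pump genes, the relatives of the sodium-potassium pump that remove calcium from the cytosol, 4 were higher and 3 lower (median 0.01). The most abundant were Atp2a2, at 858 ± 32.4 CPM in KO and 849.9 ± 60.5 CPM in WT, and Atp2b2, at 579 ± 26.5 CPM in KO and 533 ± 64.0 CPM in WT.

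The genes most like each subunit gene were ranked by the root mean square difference of log2 CPM, centred on the gene's own mean, over the 5 libraries, among genes with at least 10 CPM. With so few libraries many genes lie close to any profile. For Atp1b1, 888 of the 10445 genes compared lay within 0.05 log2 units, and the closest were Pisd, Isca1 and Rac3. For Atp1b2 there were 211, led by Cmc1, Ldb3 and Fads6, for Atp1b3 264, led by Slc4a7, Cwc27 and Wdr43, and for Fxyd1 87, led by Wrb, Zfp330 and Rspry1. Fxyd7 had 32, led by Zfp687, Uvssa and Mrpl2. Fxyd6, with the widest spread, had 6, led by Stum (0.023), Zic1 (0.038) and Ptn (0.043). None of the 6 subunit genes was among the 3 closest to another of them.

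Markers of the tissue itself were abundant. The oligodendrocyte marker Mbp, which encodes myelin basic protein, averaged 16353 ± 179.7 CPM in KO (SD, n = 2) and 16786 ± 1296 CPM in WT (SD, n = 3), and all neuron, astrocyte and motor neuron markers were detected. The microglia markers summed to 400.1 and 347 CPM in KO and 391, 370 and 420 CPM in WT. The endothelial markers summed to 308 and 178 CPM in KO and 187, 243 and 249 CPM in WT, and the erythroid markers to 238 and 336 CPM in KO and 271, 347 and 231 CPM in WT. For these 3 lists the groups overlapped.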

How the data were processed

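Polyadenylated RNA of mouse spinal cord was sequenced from TruSeq Stranded mRNA libraries, per the labels' protocols. The authors deposited 1 table of unnormalized read counts by gene. The submitters' processing notes name cutadapt, Trimmomatic, STAR 2.5.2b, HTSeq and GRCm38. Which annotation release was counted, and with which strand option, is not given in the sources used here. Groups and replicate numbers came from the sample titles. Symbols, positions and exon lengths were taken from GENCODE M21 (GRCm38); 55230 of 55471 identifiers matched. Promoter windows came from RefSeq on GRCm38.p6.

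The filterByExpr filter of edgeR, with a count minimum of 10 and a total minimum of 15, left 16052 genes. They were tested with edgeR 4.0.16 in R 4.3.3 (TMM factors, quasi-likelihood F test, no covariates, Benjamini-Hochberg adjustment over all genes). SE is the fold change divided by the root of F, and intervals use the moderated degrees of freedom. CPM values are scaled by TMM. Centred profiles and list means use log2 CPM with a prior count of 2. The test was checked on simulated counts. Chi-square per degree of freedom between libraries of a group was 4.01 to 7.47, so none repeats another.

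The 6 genes and the lists were chosen with earlier results of these data known. All 6 genes are named. Of the surrounding lists, genes passing over all genes, otherwise up to 4 at an unadjusted p under 0.05, and the 2 most abundant are named, except 1 gene that is not reported here. Of the marker lists, genes that illustrate a list were chosen after their values were seen, as were the remaining beta and FXYD genes, all of which are named. Alternatives were other size factors, other filters, robust dispersion, DESeq2 1.42.0, limma-voom (limma 3.58.1), the replicate block, each library left out and other lengths. Principal transcript lengths, the counts without WT replicate 2 and the counts at an unadjusted p with each library left out were added after the data were seen.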

Additional observations from a re-analysis of the deposited data

How the results depend on the processing

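None of the 6 genes passed under any of the 13 alternatives tried for each (lowest adjusted p 0.241, for Fxyd7 without a filter on low counts). Fxyd7 stayed positive (0.21 to 0.35), Atp1b2 positive (0.03 to 0.16) and Atp1b3 negative (−0.19 to −0.10) throughout. Atp1b1 turned to −0.024 with the replicate block and −0.029 without WT replicate 3 (range over left-out libraries −0.029 to 0.062), Fxyd1 to −0.066 without KO replicate 2 (range −0.066 to 0.23), and Fxyd6 to 0.0067 with the replicate block (range over left-out libraries −0.28 to −0.01). Deviations from the group means in same-numbered KO and WT libraries had correlations over genes of 0.058 and 0.0020. With 2 KO libraries their deviations mirror each other, so this check cannot tell whether the numbers pair the libraries. The difference in log2 ratio of Fxyd7 over Fxyd1 ran from −0.028 to 0.42 over left-out libraries. The number of genes called over the whole table, 3 lower and 0 higher, was unstable. It was 6 lower with DESeq2 size factors, 82 lower and 14 higher without a filter, 12 lower with robust dispersion, 36 lower and 4 higher in DESeq2, 1 lower in limma-voom and 24 lower and 1 higher with the replicate block. Leaving out 1 library gave 0 to 53 lower and 0 to 5 higher. The cause of these shifts was not tested. Depth does not limit Atp1b1 and Atp1b2, the genes with the most counts of the 6, but Fxyd2 and Fxyd3 rest on 8 to 135 counts.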
